A study of Mus musculus with 23 samples.

Results

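The 10 genes described here were measured in single mouse cells: fibronectin (Fn1), the matricellular proteins periostin (Postn), Sparc, tenascin C (Tnc) and thrombospondin 1 (Thbs1), the proteoglycan decorin (Dcn), and the surface proteins podoplanin (Pdpn), Pdgfra, Pdgfrb and Thy1. They were chosen by symbol, as every probe set annotated to exactly 1 of these symbols, which gave 19 probe sets of the 45037 tested and 10 genes of 18193. Postn, Pdpn and Thy1 had 1 probe set each, Sparc and Pdgfra had 3, and the other genes had 2. One more probe set (1421811_at) was annotated to both Pald1 and Thbs1 and was not used.

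Expression had been measured in 23 cells, each drawn up singly with a glass micropipette and hybridized to its own Affymetrix mouse array after its RNA was amplified. FibroTIPeR cells (5) were fibroblasts that had received poly-A RNA of cardiomyocytes by lipid transfection, and fibroControl cells (3) were fibroblasts that had received fibroblast RNA in the same way. AstroTIPeR cells (6) were astrocytes given cardiomyocyte RNA. The 2 astroControl cells were astrocytes after mock transfection. Cardiomyocytes (4) and fibroblasts (3) had not been transfected. All were cultured in DMEM with serum. TIPeR is the transfer of RNA, here poly-A RNA, from a donor cell type into another, and the study asked whether the recipient takes on the donor's phenotype. The labels give no strain, age, culture or animal. Here n counts cells, and a p-value speaks for the spread among the cells measured, part of which may be technical.

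Matricellular proteins are secreted into the extracellular matrix, where they act on cell adhesion, growth factors and matrix assembly more than as structural fibres. In the heart they are made mainly by fibroblasts, and several of them are induced on injury. The surface proteins are used to recognize or sort mesenchymal cells: the platelet-derived growth factor receptors Pdgfra and Pdgfrb respond to PDGF ligands, Pdpn is a mucin-like glycoprotein of lymphatic endothelium and activated fibroblasts, and Thy1 is a small membrane-anchored glycoprotein of fibroblasts and neurons.

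Levels are on a log2 scale after quantile normalization of all arrays, so a step of 1 is a doubling of array signal. The median of all values was 5.05, the 75th percentile 6.59 and the 90th 9.41. No detection call was used, so sizes of differences between levels near or below the median are not exact. Levels of different probe sets are not set against each other. Differences were tested with limma across all 45037 probe sets, with Benjamini-Hochberg adjustment and a threshold of 0.05, and SE is the standard error of the fitted difference.

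Promoter windows from RefSeq (GRCm38.p6), 250 bases before to 50 after the annotated start, are shown for 3 of the genes that passed the threshold in a comparison below. Each runs 5′ to 3′ on the gene's strand, and capitals mark matches on either strand. The letters searched were TATAAA for the TATA box and GGGCGG for the GC box. The AP-1 site was searched as TGACTCA and the last motif, a common element upstream of gene starts, as CCAAT. No matches overlapped.
Pdpn, chr4:143299515-143299814, minus strand: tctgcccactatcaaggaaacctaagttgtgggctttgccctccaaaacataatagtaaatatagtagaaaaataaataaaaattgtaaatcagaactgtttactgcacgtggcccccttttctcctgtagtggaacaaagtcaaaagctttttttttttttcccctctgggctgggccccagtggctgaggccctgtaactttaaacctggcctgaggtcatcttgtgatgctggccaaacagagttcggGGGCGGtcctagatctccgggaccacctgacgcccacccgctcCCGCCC
Sparc, chr11:55420031-55420330, minus strand: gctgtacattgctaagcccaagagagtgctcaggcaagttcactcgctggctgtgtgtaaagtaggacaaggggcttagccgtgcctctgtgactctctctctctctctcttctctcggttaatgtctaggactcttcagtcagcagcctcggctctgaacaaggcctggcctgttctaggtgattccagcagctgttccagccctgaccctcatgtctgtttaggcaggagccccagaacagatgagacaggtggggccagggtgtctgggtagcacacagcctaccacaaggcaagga
Postn, chr3:54360857-54361156, plus strand: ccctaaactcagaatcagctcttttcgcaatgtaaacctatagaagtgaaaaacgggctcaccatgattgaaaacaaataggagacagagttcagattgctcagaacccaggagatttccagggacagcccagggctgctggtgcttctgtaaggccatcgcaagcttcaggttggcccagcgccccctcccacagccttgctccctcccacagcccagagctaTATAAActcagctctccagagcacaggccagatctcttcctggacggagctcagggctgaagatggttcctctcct
The Pdpn window held 2 GC boxes, the first starting at base 2 after the start and the other, on the opposite strand, at base 45. The Postn window held a TATA box at base -26, and a second annotated Postn start had a CCAAT match instead. None of these letters was in the Sparc window. Over 32851 promoter windows of the same length, 13.6% held the TATA box, 35.7% the GC box, 5.20% the AP-1 site and 37.4% the last motif, and a match describes the letters only.

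The cells' own markers were checked first. Of 9 cardiomyocyte genes, 6 passed as higher and 0 as lower in cardiomyocyte minus fibroblast, among them cardiac troponin I (Tnni3), at 10.54 to 12.81 in cardiomyocytes and 4.12 to 5.43 in fibroblasts. Cardiac troponin T (Tnnt2), at 7.56 to 8.52 in cardiomyocytes and 6.41 to 11.28 in fibroblasts, did not separate them. Of 8 fibroblast genes only 2 passed, both lower in cardiomyocytes: vimentin (Vim), at 3.05 to 11.38 in cardiomyocytes and 14.57 to 15.38 in fibroblasts, and S100a4, at 6.94 to 9.98 in cardiomyocytes and 12.17 to 14.34 in fibroblasts. Of the other fibroblast genes, Col1a1, Col3a1, Fap and Ddr2 overlapped. Fap was at 10.93 to 11.46 in cardiomyocytes and 9.84 to 11.49 in fibroblasts, and Ddr2 at 10.44 to 11.34 and 10.25 to 11.30. Col1a2 was at 4.63 to 5.55 in cardiomyocytes and 7.99 to 11.29 in fibroblasts, and Lum at 4.09 to 4.97 and 5.05 to 5.63. These last genes did not overlap, but did not pass. Of 8 astrocyte genes, 0 passed in astroTIPeR minus cardiomyocyte. The astrocyte filament Gfap was at 3.54 to 6.28 in astroTIPeR cells and 4.90 to 5.73 in astroControl cells. Cardiomyocytes were at 4.81 to 7.85 for Gfap. Control probe sets for 18S ribosomal RNA lay at 12.4, 11.03 and 13.5 in fibroTIPeR 1 to 3 but at 7.80 and 7.88 in fibroTIPeR 4 and 5, against 11.2 to 12.1 in fibroControl cells, 6.94 to 8.24 in cardiomyocytes and 7.05 to 8.06 in fibroblasts. Fibroblast 3 stood apart from the other fibroblasts, with B2 repeat probe sets at 11.02. The deposited medians were 5.05 to 5.58 on the 15 fibroblast and cardiomyocyte arrays and 4.28 to 4.56 on the 8 astrocyte arrays, so a comparison of astrocytes with cardiomyocytes also compares array sets.

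**Figure D1:**
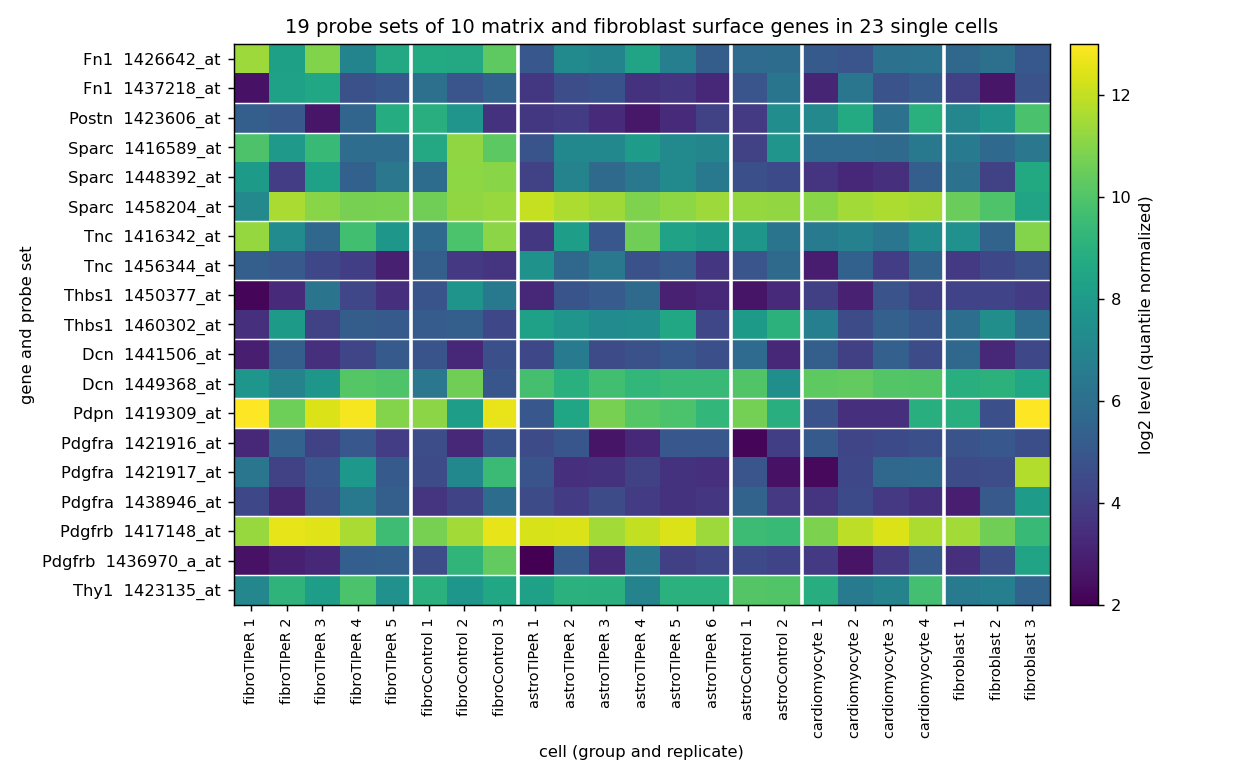
Level (log2, colour) of each of the 19 member probe sets (rows, by gene) in each of the 23 cells (columns, by group). Pdpn is high in all 5 fibroTIPeR cells and low in cardiomyocytes 1 to 3, while probe set 1458204_at of Sparc and 1417148_at of Pdgfrb are high in nearly every cell.

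Fibronectin, the adhesive glycoprotein that links integrins to the matrix, was high in fibroblasts that had received either RNA. Its lead probe set (1426642_at, the one with the higher mean over all cells) read 11.37, 8.23, 10.91, 6.96 and 8.62 in fibroTIPeR cells and 8.73, 8.63 and 10.28 in fibroControl cells. It read 5.10, 4.89, 6.14 and 6.19 in cardiomyocytes and 5.72, 6.07 and 5.05 in untreated fibroblasts. Every transfected fibroblast was above every cardiomyocyte and every untreated fibroblast, whereas the untreated fibroblasts lay within the range of the cardiomyocytes. In astrocytes it ran from 4.97 to 8.42 with a median of 6.85 in astroTIPeR cells, and read 5.83 and 5.89 in astroControl cells. The group means were 9.22 ± 1.87 in fibroTIPeR (SD, n = 5), 9.21 ± 0.923 in fibroControl (n = 3), 6.59 ± 1.30 in astroTIPeR (n = 6), 5.86 ± 0.0422 in astroControl (n = 2), 5.58 ± 0.682 in cardiomyocyte (n = 4) and 5.61 ± 0.519 in fibroblast cells (n = 3). The means of the last 3 groups differed by less than the SD among cardiomyocytes.

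The Fn1 difference passed the threshold against cardiomyocytes, at 3.64 in fibroTIPeR cells (SE 0.85, adjusted p = 0.0454) and 3.63 in fibroControl cells (SE 0.97, adjusted p = 0.0410). These comparisons share the 4 cardiomyocytes. Both calls were close to the threshold: without any 1 fibroControl cell or cardiomyocyte the second did not pass, with an adjusted p of up to 0.155, and the first did not pass without fibroTIPeR 1 (0.166), fibroTIPeR 3 (0.179) or any 1 cardiomyocyte (up to 0.145). Against untreated fibroblasts the differences were as large, 3.61 for fibroTIPeR (SE 0.93, adjusted p = 0.154) and 3.60 for fibroControl (adjusted p = 0.0684), and did not pass, with no overlap in either. Between fibroTIPeR and fibroControl cells the difference was 0.01, with a 95% interval of -1.90 to 1.91.

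Across the 15 fibroblast and cardiomyocyte arrays, Fn1 lay at 8.23 to 11.37 in the 6 cells with 18S above 10 and at 4.89 to 8.62 in the 9 below, with overlap. FibroTIPeR 1 to 3, with high 18S, exceeded cardiomyocytes by 4.59 (adjusted p = 0.00364), and fibroTIPeR 4 and 5 by 2.21 (adjusted p = 0.999). Against untreated fibroblasts the same cells differed by 4.56 (adjusted p = 0.0108) and 2.18, the first past the threshold. These subsets of fibroTIPeR cells hold unlike numbers of cells, which affects their adjusted p, and the difference between the subsets was not tested. With the 18S level as a covariate the difference from cardiomyocytes was 2.03 in fibroTIPeR (adjusted p = 0.99991) and 1.44 in fibroControl cells (adjusted p = 0.907), and neither call was left. All fibroControl cells had high 18S, so that 18S and group cannot be told apart there. The second Fn1 probe set (1437218_at) read 2.55, 8.30, 8.59, 4.73 and 4.98 in fibroTIPeR and 6.04, 4.89 and 5.49 in fibroControl cells. It read 3.13, 6.31, 4.82 and 5.21 in cardiomyocytes and 4.13, 2.67 and 4.81 in fibroblasts. It ran from 3.22 to 4.78, median 3.76, in astroTIPeR and was 4.90 and 6.26 in astroControl cells. Its values correlated at r = 0.28 with the lead probe set over the 23 cells, and it passed in no comparison.

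Sparc, a collagen-binding matricellular protein that acts in matrix assembly, gave values that depended on the probe set. The probe sets 1416589_at and 1448392_at are annotated to RefSeq transcripts and correlated with each other (r = 0.75 over 23 cells), whereas 1458204_at, which is not, correlated with them at r = -0.23 and -0.31. For 1416589_at, fibroTIPeR cells read 9.92, 7.97, 9.40, 5.94 and 5.94 and fibroControl cells 8.62, 11.16 and 10.21. Cardiomyocytes read 5.84, 5.84, 5.78 and 6.43, and fibroblasts 6.49, 5.77 and 6.37. All 3 fibroControl cells and fibroTIPeR 1 to 3 were above every cardiomyocyte and every untreated fibroblast, and fibroTIPeR 4 and 5 were not. AstroTIPeR cells ran from 4.84 to 8.09, median 7.13, and astroControl cells read 4.16 and 7.73.

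For 1448392_at, the levels were 7.99, 3.98, 8.29, 5.43 and 6.37 in fibroTIPeR cells, 5.88, 11.15 and 11.05 in fibroControl cells, 3.64, 3.26, 3.51 and 5.32 in cardiomyocytes and 6.16, 4.12 and 8.66 in fibroblasts. In astrocytes it ran from 4.17 to 7.21, median 6.43, after cardiomyocyte RNA and read 4.69 and 4.49 after mock transfection. FibroControl 2 and 3 were the highest cells of all for this probe set. Sparc was higher in fibroControl cells than in cardiomyocytes by 4.02 with 1416589_at (SE 1.02, adjusted p = 0.0313) and by 5.43 with 1448392_at (SE 1.18, adjusted p = 0.0137), with no overlap in either. The first call was lost when any 1 fibroControl cell or cardiomyocyte was left out other than fibroControl 1 (adjusted p up to 0.134), and the second without fibroControl 2 (0.0817) or fibroControl 3 (0.0721).

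In fibroTIPeR cells the differences from cardiomyocytes, 1.86 with 1416589_at (adjusted p = 0.380) and 2.48 with 1448392_at (adjusted p = 0.309), did not pass. The 3 fibroTIPeR cells with high 18S exceeded cardiomyocytes by 3.12 with 1416589_at (adjusted p = 0.0451) and the other 2 differed from cardiomyocytes by -0.04. The difference between these subsets was not tested. FibroTIPeR minus fibroControl was -2.17 (SE 0.97, adjusted p = 0.740) with 1416589_at and -2.95 (SE 1.13, adjusted p = 0.638) with 1448392_at, and neither passed. Across the 15 fibroblast and cardiomyocyte arrays, 1416589_at lay at 7.97 to 11.16 in the 6 cells with 18S above 10 and at 5.77 to 6.49 in the 9 below. It was the only member probe set that separated those cells without overlap, and over all probe sets 1.06% did so in that direction and 0.901% in the other. With the 18S level as a covariate, 1416589_at in fibroTIPeR minus cardiomyocyte turned to -0.29. The same fit gave fibroControl minus cardiomyocyte as 1.09 with 1416589_at (adjusted p = 0.932) and 3.90 with 1448392_at (adjusted p = 0.734), so that neither Sparc call was left. The 6 cells with 18S above 10 were all transfected fibroblasts and included every fibroControl cell, while no cardiomyocyte was among them. In fibroControl minus cardiomyocyte 18S and group therefore cannot be told apart.

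The third Sparc probe set (1458204_at, the lead by its mean) read 7.17, 11.62, 11.04, 10.74 and 10.78 in fibroTIPeR cells, 10.60, 11.19 and 11.29 in fibroControl cells, 11.06, 11.47, 11.66 and 11.54 in cardiomyocytes and 10.47, 9.98 and 8.44 in fibroblasts. AstroTIPeR cells ran from 10.89 to 12.02, median 11.41, and astroControl cells read 11.25 and 11.22. It was above the 90th percentile of all values in 21 of 23 cells, the exceptions being fibroTIPeR 1 and fibroblast 3. Cardiomyocytes were higher than fibroblasts by 1.80 with this probe set, without overlap, but the difference did not pass (adjusted p = 0.387).

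**Figure D2:**
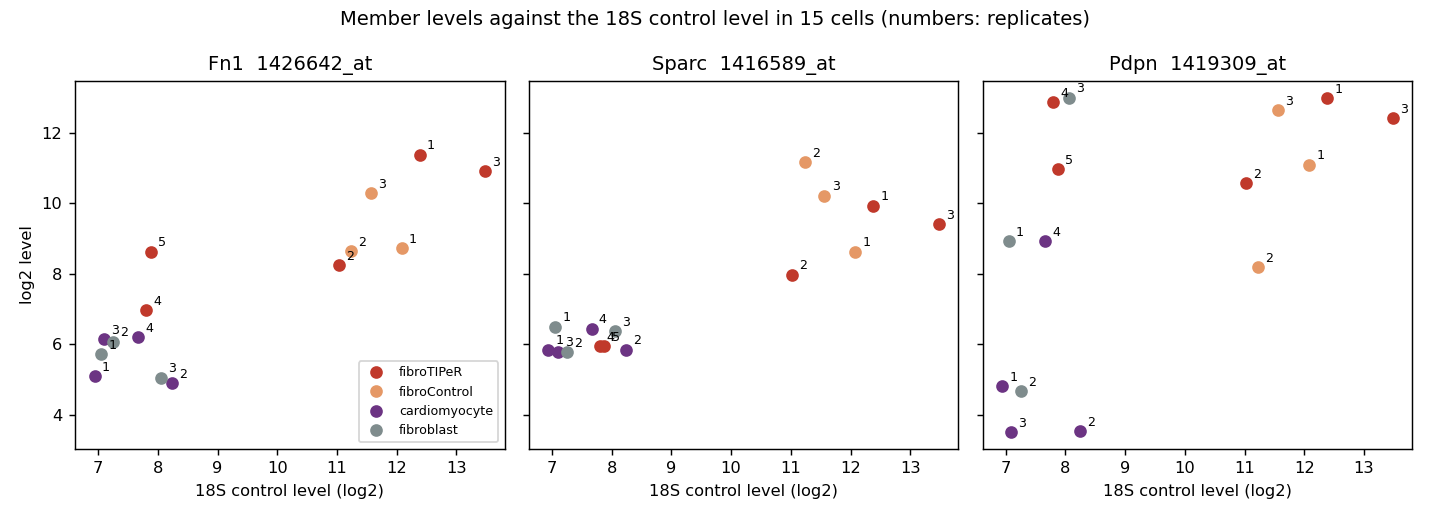
Level (log2, vertical) of Fn1 (1426642_at), Sparc (1416589_at) and Pdpn (1419309_at) against the mean level of the 18S control probe sets (log2, horizontal) in the 15 fibroblast and cardiomyocyte cells, 1 point per cell, coloured by group and numbered by replicate. Sparc is at 7.97 to 11.16 in the 6 cells with 18S above 10 and at 5.77 to 6.49 in the 9 below, while Pdpn is at 12.87 and 10.96 in the fibroTIPeR cells with low 18S.

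Podoplanin separated fibroblasts that had received cardiomyocyte RNA from cardiomyocytes, the cell type that RNA came from. Its probe set (1419309_at) read 12.97, 10.57, 12.42, 12.87 and 10.96 in fibroTIPeR cells and 11.09, 8.18 and 12.64 in fibroControl cells. Cardiomyocytes read 4.81, 3.54, 3.51 and 8.92, and fibroblasts 8.91, 4.67 and 12.99. All fibroTIPeR cells were above all cardiomyocytes, while untreated fibroblasts spanned nearly the whole range of both. AstroTIPeR cells ran from 4.97 to 10.75 with a median of 9.58, and astroControl cells read 10.69 and 8.96. The means were 11.96 ± 1.12 in fibroTIPeR (SD, n = 5), 10.64 ± 2.27 in fibroControl (n = 3), 8.90 ± 2.08 in astroTIPeR (n = 6), 9.83 ± 1.22 in astroControl (n = 2), 5.19 ± 2.56 in cardiomyocyte (n = 4) and 8.86 ± 4.16 in fibroblast cells (n = 3).

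Pdpn was higher than in cardiomyocytes by 6.76 in fibroTIPeR cells (SE 1.31, 95% interval 4.08 to 9.44, adjusted p = 0.0111) and by 5.44 in fibroControl cells (SE 1.49, adjusted p = 0.0460), where fibroControl 2 was below cardiomyocyte 4. The first did not pass without cardiomyocyte 2 (adjusted p = 0.0610) or cardiomyocyte 3 (0.0634). The second did not pass without fibroControl 1 (0.129), fibroControl 3 (0.184), or cardiomyocyte 1 (0.0904), 2 (0.115) or 3 (0.114). Pdpn was as far above cardiomyocytes in fibroTIPeR 4 and 5, with low 18S (6.72, adjusted p = 0.492), as in fibroTIPeR 1 to 3 (6.79, adjusted p = 0.0110). These adjusted p come from subsets with unlike numbers of cells. With the 18S level as a covariate neither Pdpn call was left, and the differences were 5.61 in fibroTIPeR (adjusted p = 0.747) and 3.86 in fibroControl cells (adjusted p = 0.818). All fibroControl cells had high 18S and all cardiomyocytes low, so that 18S and group cannot be told apart there. FibroTIPeR minus fibroControl was 1.32, with a 95% interval of -1.60 to 4.24 (adjusted p = 0.926). Cardiomyocyte minus fibroblast was -3.66 (adjusted p = 0.447) and did not pass. AstroTIPeR minus cardiomyocyte was 3.71 (adjusted p = 0.129), and 4.50 (adjusted p = 0.0479) without astroTIPeR 1. It did not pass in the other 9 of 10 fits that left out 1 cell (adjusted p up to 0.320).

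**Figure D3:**
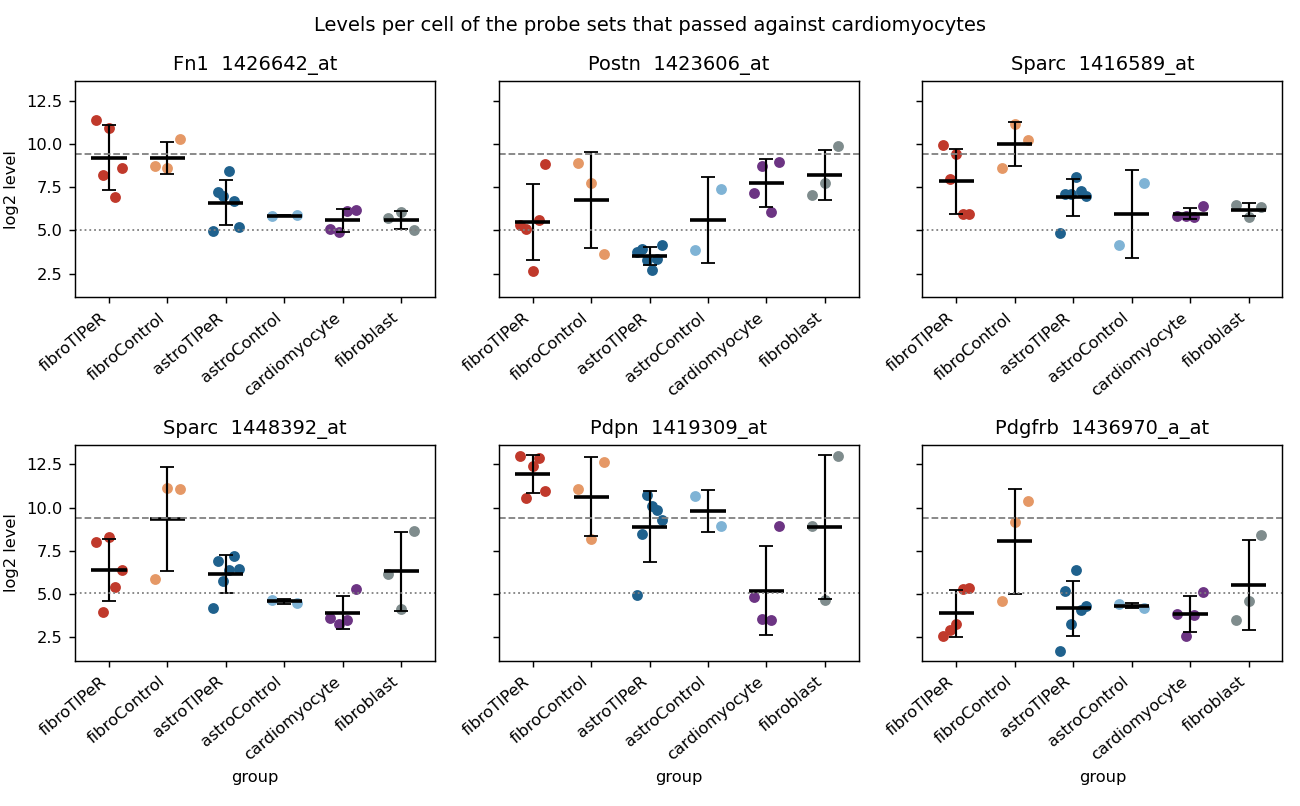
Level (log2, vertical) of the 6 member probe sets that passed in a comparison with cardiomyocytes, by group (horizontal), with 1 point per cell, a bar at the group mean, whiskers of 1 SD, and a dotted line at the median and a dashed line at the 90th percentile of all values. Pdpn is at 10.57 to 12.97 in fibroTIPeR cells and 3.51 to 8.92 in cardiomyocytes, and Fn1 in transfected fibroblasts lies above cardiomyocytes and untreated fibroblasts.

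Periostin, which fibroblasts secrete in developing and injured connective tissue, was not a marker of fibroblasts against cardiomyocytes in these cells. Its probe set (1423606_at) read 5.32, 5.06, 2.66, 5.59 and 8.82 in fibroTIPeR cells, 8.88, 7.76 and 3.63 in fibroControl cells, 7.17, 8.74, 6.09 and 8.97 in cardiomyocytes and 7.07, 7.74 and 9.86 in fibroblasts. AstroTIPeR cells lay at 2.72 to 4.15, median 3.56, and astroControl cells at 3.85 and 7.38. The ranges of cardiomyocytes and untreated fibroblasts overlapped, and every astroTIPeR cell was below every cardiomyocyte. Postn was lower by 4.21 in astroTIPeR cells than in cardiomyocytes (95% interval -6.27 to -2.15, adjusted p = 0.0249), a comparison that crosses the array sets. With the 18S covariate it was -3.72 (adjusted p = 0.0744). Without cardiomyocyte 2 (0.0988), cardiomyocyte 4 (0.0867), astroTIPeR 3 (0.0519) or astroTIPeR 4 (0.0572) the adjusted p was above the threshold. Postn was -2.73 in fibroTIPeR minus fibroblast and -2.25 in fibroTIPeR minus cardiomyocyte, and neither passed.

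Tenascin C, a hexameric glycoprotein of injured and developing tissue, varied most within the fibroblast groups and among astroTIPeR cells. Its lead probe set (1416342_at) read 11.25, 7.33, 5.66, 9.68 and 7.84 in fibroTIPeR cells, 5.77, 9.87 and 11.10 in fibroControl cells, 6.50, 6.82, 6.30 and 7.37 in cardiomyocytes and 7.58, 5.49 and 10.96 in fibroblasts. AstroTIPeR cells ran from 3.78 to 10.63, median 8.04, and astroControl cells read 7.82 and 6.25. Cardiomyocytes had the narrowest range, and each fibroblast group held cells both above and below all 4 of them. The other probe set (1456344_at) stayed at 2.95 to 5.32 in fibroTIPeR, 3.72 to 5.33 in fibroControl, 3.73 to 7.59 in astroTIPeR, 4.90 to 5.79 in astroControl, 2.85 to 5.52 in cardiomyocyte and 3.85 to 4.74 in fibroblast cells. It passed in no comparison, as did the lead.

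Thrombospondin 1, an activator of latent TGF-beta and a ligand of Cd36 and Cd47, differed by probe set (r = -0.22 between the probe sets over 23 cells). The lead (1460302_at) read 3.54, 7.98, 4.17, 5.25 and 5.14 in fibroTIPeR cells, 5.20, 5.32 and 4.37 in fibroControl cells, 6.76, 4.53, 5.37 and 4.94 in cardiomyocytes and 5.96, 7.42 and 5.96 in fibroblasts. AstroTIPeR cells ran from 4.33 to 8.54, median 7.56, and astroControl cells read 7.99 and 9.08. Apart from astroTIPeR 6, at 4.33, the astrocytes lay above most fibroblasts and cardiomyocytes, across array sets, and astroTIPeR minus cardiomyocyte was 1.86 and did not pass. The other probe set (1450377_at) read 2.18, 3.34, 6.25, 4.36 and 3.54 in fibroTIPeR, 4.86, 7.70 and 6.45 in fibroControl, 4.09, 3.03, 4.82 and 4.16 in cardiomyocyte and 4.21, 4.21 and 3.95 in fibroblast cells. It was 3.02 to 5.81, median 4.05, in astroTIPeR and 2.64 and 3.34 in astroControl cells. FibroControl cells were above all cardiomyocytes and fibroblasts with 1450377_at, by 2.31 (adjusted p = 0.117) and 2.21 (adjusted p = 0.172), and below all fibroblasts with the lead. No Thbs1 difference passed.

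Decorin, a small leucine-rich proteoglycan that binds collagen fibrils, was high in cardiomyocytes. Its lead probe set (1449368_at) read 7.80, 6.94, 7.81, 10.08 and 9.97 in fibroTIPeR cells, 6.37, 10.60 and 4.94 in fibroControl cells, 10.29, 10.34, 10.06 and 10.00 in cardiomyocytes and 8.93, 9.06 and 8.58 in fibroblasts. AstroTIPeR cells lay at 8.97 to 9.75, median 9.44, and astroControl cells at 9.99 and 7.49. All 4 cardiomyocytes were above all 3 untreated fibroblasts, but the difference of 1.32 did not pass (adjusted p = 0.696). Within fibroTIPeR the pair of cells with low 18S were the high ones. FibroControl minus cardiomyocyte was -2.87 (adjusted p = 0.1001) with fibroControl 2 included, which at 10.60 was the highest cell, and -4.52 (adjusted p = 0.0133) without it. The other probe set (1441506_at) read 2.92, 5.32, 3.51, 4.28 and 5.14 in fibroTIPeR, 4.86, 3.22 and 4.70 in fibroControl, 5.33, 4.09, 5.37 and 4.58 in cardiomyocyte and 5.66, 3.25 and 4.37 in fibroblast cells, and was 4.37 to 6.54 in astroTIPeR and 5.83 and 3.21 in astroControl cells. It passed in no comparison.

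The PDGF receptors gave no common pattern. Pdgfra, the receptor that marks many resident fibroblasts, had its lead probe set (1421917_at) at 6.34, 4.12, 4.99, 7.84 and 5.14 in fibroTIPeR cells, 4.50, 7.13 and 9.52 in fibroControl cells, 2.27, 4.40, 5.69 and 5.75 in cardiomyocytes and 4.57, 4.61 and 11.71 in fibroblasts. It was at 3.50 to 4.84, median 3.61, in astroTIPeR and at 4.90 and 2.55 in astroControl cells. The high cells were fibroblast 3 and fibroControl 3, and the other untreated fibroblasts were at the level of the cardiomyocytes. Probe set 1438946_at followed it (r = 0.78 over 23 cells), again with fibroblast 3 highest at 8.03 and the other cells at 2.94 to 6.46. Probe set 1421916_at stayed between 2.18 and 5.46 in every cell. No Pdgfra difference had an unadjusted p under 0.05.

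Pdgfrb, the receptor of pericytes and fibroblasts, had a lead probe set (1417148_at) that was high in all groups. It read 11.29, 12.58, 12.44, 11.62 and 9.60 in fibroTIPeR cells, 10.73, 11.47 and 12.58 in fibroControl cells, 10.85, 11.92, 12.41 and 11.64 in cardiomyocytes and 11.46, 10.60 and 9.47 in fibroblasts. AstroTIPeR cells read 11.37 to 12.41, median 12.16, and astroControl cells 9.53 and 9.40. Every astroTIPeR cell was above both mock-transfected astrocytes. The difference was 2.53 (SE 0.59, adjusted p = 0.0785) and did not pass. With the values as deposited it was 2.81 (adjusted p = 0.0243) and with normalization within the astrocyte arrays 2.77 (adjusted p = 0.0243), both past the threshold. In the main normalization it was 2.45 to 2.66 with each cell left out in turn. It passed in no fit that left out an astroTIPeR cell, and the astroControl group holds only 2 cells. The Gapdh controls, 3′ minus 5′, a sign of RNA quality, also separated these groups, at 2.94 to 5.05 in astroTIPeR and 1.51 to 2.63 in astroControl cells, and its part in the Pdgfrb values was not tested. The Pdgfrb difference between recipients, fibroTIPeR minus fibroControl less astroTIPeR minus astroControl, was -2.62 and did not pass (adjusted p = 0.407).

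The other Pdgfrb probe set (1436970_a_at) read 2.55, 2.95, 3.27, 5.27 and 5.38 in fibroTIPeR cells, 4.60, 9.19 and 10.38 in fibroControl cells, 3.87, 2.60, 3.82 and 5.14 in cardiomyocytes and 3.51, 4.61 and 8.44 in fibroblasts. It was at 1.69 to 6.39, median 4.21, in astroTIPeR and at 4.43 and 4.22 in astroControl cells. FibroControl 2 and 3 and fibroblast 3 were the high cells. FibroControl minus cardiomyocyte was 4.20 (SE 1.17, adjusted p = 0.04996), with overlap. It was 5.40 and did not pass with the 18S covariate (adjusted p = 0.473), nor without fibroControl 2 (0.175), fibroControl 3 (0.227) or any 1 cardiomyocyte (up to 0.123). Here too 18S and group cannot be told apart. FibroTIPeR minus fibroControl was -4.17 (SE 1.11, adjusted p = 0.362), and -5.90 (adjusted p = 0.0208) without fibroControl 1. This difference did not pass in the other 7 of 8 fits that left out 1 cell (adjusted p up to 0.643). The Pdgfrb probe sets correlated at r = -0.13 over the 23 cells.

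Thy1 did not mark the untreated fibroblasts here, since untreated fibroblasts held 3 of the 4 lowest levels among the 23 cells. Its probe set (1423135_at) read 7.09, 9.17, 8.13, 9.87 and 7.54 in fibroTIPeR cells, 9.02, 7.79 and 8.54 in fibroControl cells, 8.85, 6.58, 6.94 and 9.71 in cardiomyocytes and 6.55, 6.77 and 5.52 in fibroblasts. AstroTIPeR cells lay at 6.90 to 9.02, median 8.99, and both astroControl cells, at 10.07 and 10.02, were above them, in the groups that the Gapdh 3′ minus 5′ value also separated, whose part was not tested. Transfected fibroblasts of both kinds were above all untreated ones, by 2.08 in fibroTIPeR (adjusted p = 0.357) and 2.17 in fibroControl cells (adjusted p = 0.213), and these differences did not pass. Cardiomyocyte minus fibroblast was 1.74 and did not pass.

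**Figure D4:**
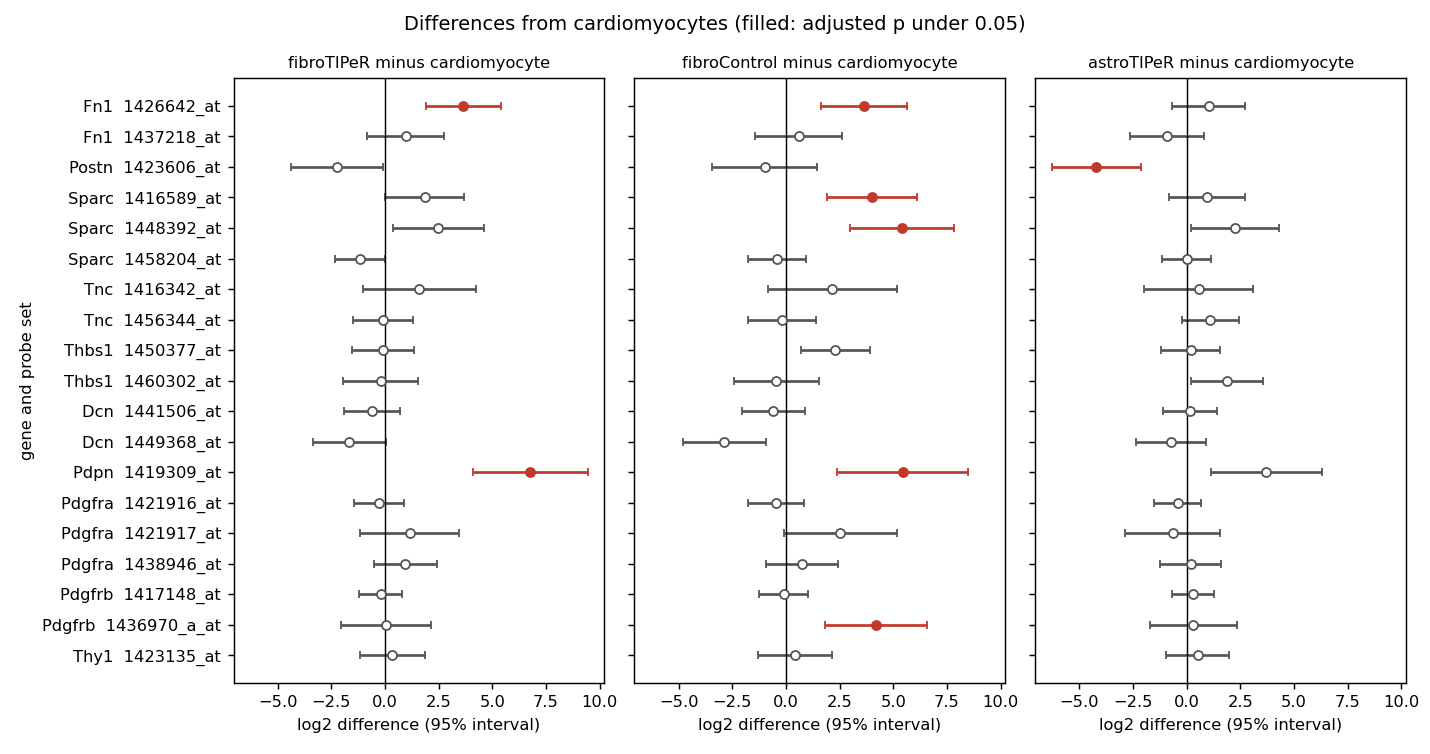
Fitted log2 difference from cardiomyocytes (horizontal, with 95% intervals) of each member probe set (vertical) in fibroTIPeR, fibroControl and astroTIPeR cells (panels), with filled points for an adjusted p under 0.05. Pdpn is at 6.76 in fibroTIPeR and 5.44 in fibroControl cells, and Postn in astroTIPeR cells, at -4.21, is the only filled point left of 0.

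Counted over all member probe sets, fibroTIPeR minus cardiomyocyte had 2 of 19 higher and 0 lower past the threshold, beside 0.431% and 0.129% of all probe sets. FibroControl minus cardiomyocyte had 5 of 19 higher and 0 lower, beside 1.69% and 0.795%. AstroTIPeR minus cardiomyocyte had 0 higher and 1 of 19 lower, beside 1.13% and 0.733%. These 3 comparisons share the cardiomyocytes. With the values as deposited, Pdpn in fibroTIPeR and Sparc 1448392_at in fibroControl cells were still past the threshold, and the other 5 calls in transfected fibroblasts had adjusted p of 0.0615 to 0.0878. With the 18S level as a covariate none of the 8 calls in these comparisons was left. Calls over all probe sets in that fit are not set beside this, so the loss is not read as particular to the members. At an unadjusted p under 0.05 the members in these 3 comparisons, in the main fit, were 4 higher and 1 lower in fibroTIPeR (all probe sets 6.83% and 6.14%), 6 higher and 1 lower in fibroControl (8.83% and 8.47%), and 3 higher and 1 lower in astroTIPeR cells (7.7% and 8.42%). With the lead probe set alone for each gene, fibroControl minus cardiomyocyte called only Fn1 and Pdpn, since the Sparc and Pdgfrb probe sets that passed were not the leads.

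In the other comparisons limma called 0 member probe sets. For fibroTIPeR minus fibroControl the whole array gave 0.00222%, and at an unadjusted p under 0.05 the members gave 0 higher and 4 lower, beside 2.81% and 3.59% of all probe sets. For fibroTIPeR minus fibroblast the array gave 0.00444%, and the members 4 higher and 1 lower unadjusted, beside 4.48% and 6.04%. FibroControl minus fibroblast gave 1.32% over the array, and the members 5 higher and 0 lower unadjusted, beside 7.99% and 8.7%. Cardiomyocyte minus fibroblast gave 0.127%, and the members 3 higher and 1 lower unadjusted, beside 4.49% and 4.74%. AstroTIPeR minus astroControl gave 0.127% as well, with 1 member higher and 0 lower unadjusted, beside 3.47% and 6.34%. For the effect of transfer in fibroblasts less that in astrocytes, 0 probe sets of the whole array passed and 0 members were higher and 5 lower unadjusted (beside 4.59% and 3.39%), the largest being Sparc 1448392_at at -4.52 (adjusted p = 0.491).

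Probe sets whose cells did not overlap between groups were counted as well. In fibroControl minus fibroblast these were 6 member probe sets that were higher (both of Fn1, 1416589_at and 1458204_at of Sparc, 1450377_at of Thbs1, and Thy1) and 1 that was lower (the Thbs1 lead), beside 11.9% and 10.9% of all probe sets. The median difference of the members there was 1.08, beside 0.05 for all probe sets. In fibroTIPeR minus fibroblast the median was 0.04 for the members and 0.04 for all, and the higher ones were Fn1 1426642_at and Thy1 with 0 lower, beside 2.81% and 2.62%. In fibroTIPeR minus fibroControl no member was free of overlap in either direction, beside 1.51% and 1.64%. Against cardiomyocytes there were 2 higher and 0 lower in fibroTIPeR (beside 1.88% and 1.76%), 4 higher and 0 lower in fibroControl (7.7% and 9.02%), and 0 higher and 2 lower, Postn and Dcn 1449368_at, in astroTIPeR cells (3.41% and 3.34%). Cardiomyocyte minus fibroblast had 2 higher, Sparc 1458204_at and Dcn 1449368_at, and 0 lower, beside 7.12% and 4.06%. AstroTIPeR minus astroControl had 1 higher, Pdgfrb 1417148_at, and 2 lower, Thy1 and Fn1 1437218_at, beside 6.0% and 5.25%.

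Genes that work with the members were counted from lists of 21 other matricellular genes, 9 small leucine-rich proteoglycans, 17 matrix receptors, 4 PDGF ligands and 11 stromal surface markers. In fibroTIPeR minus fibroControl, fibroTIPeR minus fibroblast, cardiomyocyte minus fibroblast and astroTIPeR minus astroControl, none of these passed. Biglycan (Bgn), a proteoglycan related to decorin, was the one of 9 that passed in fibroTIPeR minus cardiomyocyte. It read 13.14, 11.74, 13.69, 13.59 and 10.88 in fibroTIPeR, 12.69, 13.76 and 14.41 in fibroControl, 7.25, 5.25, 7.52 and 10.06 in cardiomyocyte and 12.15, 10.40 and 13.38 in fibroblast cells. It was higher than in cardiomyocytes by 5.09 in fibroTIPeR (SE 0.85, adjusted p = 0.00274) and by 6.10 in fibroControl cells (adjusted p = 0.00159), and it was also high in untreated fibroblasts, unlike Fn1 1426642_at and Sparc 1416589_at. The matrix receptor Cd36, which binds thrombospondin and fatty acids, was lower by 3.34 in fibroTIPeR cells than in cardiomyocytes (adjusted p = 0.0362). It read 3.81, 3.34, 2.84, 3.97 and 2.95 in fibroTIPeR cells, and was also low in untreated fibroblasts, at 2.58, 2.84 and 4.04. In fibroControl minus cardiomyocyte the integrin subunit Itgav (5.06, adjusted p = 0.0375), the matricellular gene Fbln5 (3.69, adjusted p = 0.0432) and the ligand Pdgfc (5.13, adjusted p = 0.0348) were each the only gene of their list to pass. For Fbln5, fibroControl cells read 3.82, 9.23 and 9.44, and the first of them lay within the range of the cardiomyocytes, 3.58 to 4.12. Untreated fibroblasts read 7.40, 7.36 and 12.10 for Itgav, 5.15, 5.15 and 7.35 for Fbln5, and 8.55, 7.12 and 12.83 for Pdgfc.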

How the data were processed

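Arrays of 23 single mouse cells were used, in the 6 groups the labels give. Per the labels' protocols, poly-A RNA was transfected with a lipid reagent, single cells were taken with a glass micropipette, and their RNA was amplified and labelled with an Illumina TotalPrep kit. The values deposited by the authors were log2 levels of 45101 probe sets, as their range shows. The sources used here do not give the summarization or normalization. The number of arrays limits the precision.

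All columns were quantile normalized, and 64 control probe sets were set aside. The remaining 45037 were fitted with limma 3.58.1 in R 4.3.3, using lmFit with a mean per group and eBayes with a trend, two-sided, for 8 comparisons and for the effect of transfer in fibroblasts less that in astrocytes. The procedure was tested on simulated data. Symbols came from the platform annotation.

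The members, lists and comparisons were chosen with earlier results of these data known. By rule, each cell's value is given for a gene's lead probe set and for others that passed or differed from it in sign, and list genes are named where they passed, up to 4 per list and comparison.

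Alternatives were the values as deposited, quantile normalization within each array set, 1 probe set per gene, probe sets above the median level, eBayes without trend, the replicate number as a term, the 18S level as a covariate, fibroTIPeR 1 to 3 or 4 and 5 alone, and each cell left out in turn.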

Additional observations from a re-analysis of the deposited data

Results flagged for a closer look

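In each group of 4 to 6 cells, the highest and lowest cell of every member probe set was set against the others with Dixon's gap ratio. Of 57 such sets of values, 6 had a cell past the 95% value, and chance gives about 5% of them. For Sparc 1416589_at, astroTIPeR 1 was at 4.84 with the other astroTIPeR cells at 7.01 to 8.09, and cardiomyocyte 4 was at 6.43 with the other cardiomyocytes at 5.78 to 5.84. For Sparc 1458204_at, fibroTIPeR 1 was at 7.17 with the other fibroTIPeR cells at 10.74 to 11.62. For Thbs1 1460302_at, astroTIPeR 6 was at 4.33 with the others at 7.32 to 8.54. For Dcn 1441506_at, astroTIPeR 2 was at 6.54 with the others at 4.37 to 5.05. For Thy1, astroTIPeR 4 was at 6.90 with the others at 8.31 to 9.02.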

How the results depend on the processing

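Of 677 alternative fits of 42 single differences, 600 kept their direction and side of the threshold. Another 63 lost a call, 7 gained 1 and 7 changed sign. Most of the 42 had not passed in the main fit, so most of the 600 stayed short of the threshold. With each cell left out in turn, the fibroControl minus cardiomyocyte calls held in 0 of 7 fits for Fn1 and 1 of 7 for Sparc 1416589_at. Pdgfrb 1436970_a_at held in 1 of 7, Pdpn in 2 of 7 and Sparc 1448392_at in 5 of 7. In fibroTIPeR minus cardiomyocyte, Fn1 held in 3 of 9 and Pdpn in 7 of 9. The astroTIPeR minus cardiomyocyte call of Postn held in 6 of 10. With the 18S covariate no member passed in any comparison (0 in each against cardiomyocytes), Sparc 1416589_at in fibroTIPeR minus cardiomyocyte turned to -0.29, Fn1 was 2.03 in fibroTIPeR and 1.44 in fibroControl cells relative to cardiomyocytes, and Pdpn was 5.61 and 3.86. With fibroTIPeR 4 and 5 alone, 0 members passed against cardiomyocytes, the same Sparc difference was -0.038, and Fn1 in fibroTIPeR minus fibroControl was -1.42, a value that ran from -0.53 to 0.57 when each cell was left out. With fibroTIPeR 1 to 3 alone, 1 member passed against untreated fibroblasts. With the values as deposited, and likewise with normalization within each array set, 1 member passed in fibroTIPeR minus cardiomyocyte, 1 in fibroControl minus cardiomyocyte, 1 in astroTIPeR minus astroControl and 2 in astroTIPeR minus cardiomyocyte, where the calls over all probe sets were 13060 and 10866 in place of 841. FibroControl minus cardiomyocyte had 2 calls with 1 probe set per gene and 3 without a trend in eBayes. Leaving out each cell in turn gave 0 to 1 calls in fibroTIPeR minus fibroControl, 0 to 2 in fibroTIPeR minus cardiomyocyte, 0 to 3 in fibroControl minus cardiomyocyte and 0 to 2 in astroTIPeR minus cardiomyocyte. Except where given above, calls over all probe sets in these fits are not set beside the member counts, so a change is not read as particular to the members. The cause of these changes was not tested.

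The replicate numbers were not treated as a pairing. Over 44 pairs of cells with the same number, deviations from the group means correlated at -0.305 to 0.239 (median 0.01), 6 of them over 0.1. The 171 other pairs ran from -0.347 to 0.412 (median -0.01), 27 of them over 0.1. With so few cells per group, this check cannot exclude a shared culture or batch. With the replicate block, 1 member passed in fibroTIPeR minus cardiomyocyte and 3 in fibroControl minus cardiomyocyte, again without the calls over all probe sets beside them. Levels near the array median limit what can be read from Pdgfra, Thbs1 and the second probe sets of Fn1, Tnc and Dcn.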

Other observations

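Further genes of the lists passed in comparisons where no member did, or across array sets. The collagen receptor subunit Itga2 was at 7.03, 6.85 and 6.54 in fibroControl cells and 3.56, 3.95 and 4.51 in fibroblasts, a difference of 2.80 (limma, adjusted p = 0.0451). The pericyte gene Rgs5 was at 4.86, 7.93 and 5.84 in fibroControl cells and 10.73, 9.39 and 10.97 in fibroblasts, a difference of -4.16 (limma, adjusted p = 0.0480). Rgs5 in fibroTIPeR cells was at 5.42, 8.44 and 6.15 in the 3 cells with high 18S, and at 10.23 and 9.77 in the other 2. Tenascin N (Tnn) was at 6.74 to 9.23 in astroTIPeR cells and 3.87 to 5.41 in cardiomyocytes, a difference of 2.89 (limma, adjusted p = 0.0245), with the astroControl cells at 6.92 and 8.20.

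Over the 15 fibroblast and cardiomyocyte cells, the gene among 12120 whose lead probe set was most like a member's lead was Fth1 for Fn1 (r = 0.938), Tbc1d14 for Sparc (0.980), Timp2 for Pdpn (0.940), Hps6 for Postn (0.876), Derl1 for Tnc (0.877), Maea for Thbs1 (0.859), Dnajc24 for Dcn (0.891), Slc2a13 for Pdgfra (0.877), Egr3 for Pdgfrb (0.889) and Agpat5 for Thy1 (0.873). These are the highest of many correlations over 15 cells that fall in 4 groups and differ in 18S level, and are given as a description. They hold for the lead probe sets only. Over the 23 cells the leads of Sparc, Tnc, Thbs1 and Pdgfrb correlated negatively with the other probe sets of their genes.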
